A study of Rattus norvegicus with 23 samples.

Results

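Pou3f1, Eri2, Pim3, Cacng5, Clic3, Tesc and Dnase1 are 7 kidney genes whose signal was lower after the loss of 1 kidney in SBH/y rats, with no fall or a smaller one in SBN/y rats. They were picked for that pattern on these same arrays, so every value of the uninephrectomy response below describes the choice and supports nothing. They stood among 14217 genes, each represented by its brightest probe set (the group of short probes that reads 1 transcript), and 8 of the 31042 probe sets tested carried their symbols. Only Eri2 had 2 of them. The name under which they were grouped, genes that fell only in SBH/y, describes the group means of 3 of the 7. In SBN/y the mean signal of Pou3f1, Eri2 and Pim3 was not lower with 1 kidney, whereas that of Cacng5, Clic3, Tesc and Dnase1 was lower there too. For Eri2 only the brighter probe set passed as lower in SBH/y.

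The arrays measured RNA from frozen kidneys of male rats aged 4 months, fed standard chow, of the strains SBN/y and SBH/y, the hypertension-resistant and the hypertension-prone Sabra lines. In each strain the rats had either been sham-operated and kept 2 kidneys (5 SBN/y and 6 SBH/y arrays) or had lost 1 kidney 3 months earlier (6 SBN/y and 6 SBH/y arrays). The labels name no drug treatment, and the title gives proteinuria as the subject. Which kidney was removed or hybridised is not given in the sources used here. Values are log2 signals after RMA, a method that corrects background and gives the arrays a common distribution, and a difference of 1 is a 2-fold change. They are relative signals of 1 probe set and do not rank genes against each other.

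The 7 genes work in unrelated places. Pou3f1 is a POU domain transcription factor known from Schwann cells, and Eri2 belongs to the DEDDh exonucleases, enzymes that trim nucleic acids from an end. Pim3 is a serine/threonine kinase of the PIM family, which has no regulatory domain and is controlled mainly through the amount of protein made. Cacng5 encodes a gamma subunit of the family that accompanies voltage-gated calcium channels and AMPA receptors. Clic3 is a chloride intracellular channel protein, Tesc (tescalcin) a calcium-binding protein that interacts with the sodium-proton exchanger NHE1, and Dnase1 the secreted endonuclease that degrades DNA in body fluids and is abundant in kidney.

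Promoter windows of 300 bases, from 250 before to 50 after the start of the gene, were found for 6 of the 7 genes in RefSeq (GRCr8). That of Pou3f1 was not matched. The windows of 4 genes are shown, a pair for each of the response patterns described below. Capitals in that of Eri2 mark the 168 bases, positions 133 to 300, that also belong to the window of Rexo5 on the other strand. Capitals in the other windows mark matches to the motifs searched.
Eri2, chr1:183599937-183600236, minus strand: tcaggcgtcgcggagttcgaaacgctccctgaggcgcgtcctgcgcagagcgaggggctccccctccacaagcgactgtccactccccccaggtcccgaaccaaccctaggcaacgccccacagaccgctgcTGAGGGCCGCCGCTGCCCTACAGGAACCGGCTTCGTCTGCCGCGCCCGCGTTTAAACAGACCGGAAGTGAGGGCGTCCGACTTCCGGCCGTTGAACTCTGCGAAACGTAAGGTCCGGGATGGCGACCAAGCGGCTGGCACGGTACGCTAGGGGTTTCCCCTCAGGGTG
Pim3, chr7:121832795-121833094, plus strand: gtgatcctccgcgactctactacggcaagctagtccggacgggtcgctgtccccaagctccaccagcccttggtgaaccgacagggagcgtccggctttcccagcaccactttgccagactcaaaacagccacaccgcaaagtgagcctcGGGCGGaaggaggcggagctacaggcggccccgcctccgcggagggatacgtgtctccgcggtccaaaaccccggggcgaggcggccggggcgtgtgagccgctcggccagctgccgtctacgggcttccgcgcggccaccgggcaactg
Tesc, chr12:44216491-44216790, minus strand: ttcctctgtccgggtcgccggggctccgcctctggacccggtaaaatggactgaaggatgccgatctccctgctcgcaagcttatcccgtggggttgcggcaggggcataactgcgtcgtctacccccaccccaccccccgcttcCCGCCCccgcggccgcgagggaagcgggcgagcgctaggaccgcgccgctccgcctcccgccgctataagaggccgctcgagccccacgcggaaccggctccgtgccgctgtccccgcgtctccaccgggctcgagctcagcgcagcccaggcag
Dnase1, chr10:12008195-12008494, minus strand: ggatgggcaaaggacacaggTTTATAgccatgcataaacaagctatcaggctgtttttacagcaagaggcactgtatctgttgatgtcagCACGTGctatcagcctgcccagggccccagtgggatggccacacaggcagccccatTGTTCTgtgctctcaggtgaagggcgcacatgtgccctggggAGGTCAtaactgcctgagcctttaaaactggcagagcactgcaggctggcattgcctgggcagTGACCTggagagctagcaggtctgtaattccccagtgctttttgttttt
The windows of Eri2, Pim3 and Tesc were rich in G and C (67.0%, 68.7% and 72.0%) and held 33, 33 and 38 CpG dinucleotides. Dnase1 had 53.7% and 2 CpG, Cacng5 53.0% and 2, and Clic3 60.7% and 4, while the median of 33469 windows was 51.7% with 7. In this Tesc was like Eri2 and Pim3, and unlike Cacng5, Clic3 and Dnase1, whose response pattern it shared. Whether CpG content goes with the response patterns was not tested, and 6 windows are too few to tell. A script searched both strands of each window for the TATA box (TATAAA) and the CCAAT box, both core promoter elements. It also searched for GGGCGG, which is the GC box bound by Sp1-like factors, and for CACGTG, which is the E-box. The AP-1 site was written TGANTCA, with N for any base. The HNF1 site was written GTTAAT, that of nuclear receptors AGGTCA, and that of steroid receptors AGAACA. The octamer of POU factors, finally, was ATGCAAAT. GGGCGG lay in the windows of Pim3, Tesc and Clic3, and in 33.1% of all windows. Dnase1 held CACGTG (6.42% of all windows), AGGTCA once on each strand (16.2%), AGAACA (20.7%) and TATAAA (14.2%), the last on the reverse strand and 230 bases before the start. Cacng5 held AGAACA. In the window of Eri2 none of these letters was found. These matches are descriptions of sequence and not sites of binding.

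The signal of Pou3f1 was lowest in SBH/y kidneys after uninephrectomy and was highest in SBH/y with 2 kidneys. It read 3.82, 3.81, 4.06, 3.95 and 3.99 on the SBN/y arrays with 2 kidneys, and between 3.82 and 4.48 (median 4.09) in SBN/y with 1. In SBH/y it lay between 3.83 and 4.74 (median 4.47) with 2 kidneys and between 3.26 and 3.76 (median 3.49) with 1. The SBH/y groups did not overlap and the SBN/y groups did. In the limma fit, SBH/y with 1 kidney was lower than with 2 by a difference of -0.88 ± 0.13 (SE, n = 6 and 6), and SBN/y differed by 0.18 ± 0.14 (SE, n = 6 and 5). All group means were under 4.66, the mean of the median probe set. Differences between such dim signals tend to be compressed by background.

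Eri2 had nearly the same level in 3 of the groups and was lower in SBH/y with 1 kidney. The SBN/y arrays with 2 kidneys read 8.13, 7.93, 7.88, 7.96 and 8.10, and those with 1 kidney 8.03 to 8.30 (median 8.26). SBH/y read 7.98 to 8.33 (median 8.01) with 2 kidneys and 7.32 to 7.68 with 1. Every SBH/y array with 1 kidney was below every other array of the study for this probe set, with 0.30 between it and the nearest SBH/y array with 2 kidneys. The difference was -0.60 ± 0.08 (SE) in SBH/y and 0.20 ± 0.08 (SE) in SBN/y. The dimmer probe set of Eri2 showed less. With 2 kidneys its mean was 4.64 ± 0.15 (SD, n = 5) in SBN/y and 4.63 ± 0.28 (SD, n = 6) in SBH/y, and with 1 kidney 4.81 ± 0.18 and 4.43 ± 0.25 (n = 6 each). There the SBH/y groups overlapped, and the difference was -0.21 ± 0.12 (SE) in SBH/y and 0.17 ± 0.12 (SE) in SBN/y.

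Pim3 had a lower mean with 1 kidney in SBH/y and a higher one in SBN/y, where the difference did not pass (adjusted p = 0.280 by limma). Pim3 read 8.11, 7.92, 8.15, 8.07 and 8.11 in SBN/y with 2 kidneys and 8.21 to 8.41 (median 8.29) with 1, so that the latter group was higher without overlap. How many of all probe sets were higher without overlap there was not counted. SBH/y kidneys read 8.15 to 8.47 (median 8.44) with 2 kidneys and 7.67 to 8.05 (median 7.93) with 1, and these groups did not overlap either. The difference was -0.48 ± 0.07 (SE) in SBH/y and 0.22 ± 0.07 (SE) in SBN/y.

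In Cacng5, Clic3, Tesc and Dnase1 the signal was lower with 1 kidney in both strains, by less in SBN/y. Cacng5 read 5.91, 5.72, 5.82, 5.88 and 5.82 in SBN/y with 2 kidneys and 5.18 to 5.52 with 1, without overlap. In SBH/y it read 5.13 to 5.70 with 2 kidneys and 4.11 to 5.18 with 1. These groups overlapped through replicate 5 of the latter, and the SBH/y arrays with 1 kidney spread more (SD 0.35, n = 6) than those of the other groups (0.07 to 0.20). The difference was -0.81 ± 0.11 (SE) in SBH/y and -0.49 ± 0.12 (SE) in SBN/y.

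Clic3 read 6.48, 6.65, 6.43, 6.54 and 6.41 in SBN/y with 2 kidneys and 5.90 to 6.46 (median 6.11) with 1, and here the SBN/y groups overlapped. The SBH/y arrays read 6.37 to 6.78 (median 6.44) with 2 kidneys and 5.21 to 6.10 (median 5.86) with 1, without overlap. The sham-operated groups of the strains had the same mean within their spread, 6.50 ± 0.09 (SD, n = 5) and 6.49 ± 0.15 (SD, n = 6). The difference after uninephrectomy was -0.70 ± 0.11 (SE) in SBH/y and -0.36 ± 0.11 (SE) in SBN/y.

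Tesc had lower signals with 1 kidney and in SBH/y, which put 5 of the 6 pairs of groups apart. It read 6.58, 6.54, 6.73, 6.67 and 6.52 in SBN/y with 2 kidneys, 6.15 to 6.35 (median 6.30) in SBN/y with 1, 6.25 to 6.51 (median 6.37) in SBH/y with 2 and 5.23 to 5.96 (median 5.77) in SBH/y with 1. SBN/y with 1 kidney and SBH/y with 2 shared a stretch of signal, and every other pair of groups was apart. The sham-operated groups of the strains were apart by only 0.002. The difference was -0.69 ± 0.09 (SE) in SBH/y and -0.34 ± 0.09 (SE) in SBN/y.

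Dnase1 read 10.41, 10.41, 10.70, 10.47 and 10.38 in SBN/y with 2 kidneys and 9.98 to 10.27 (median 10.17) with 1. SBH/y arrays read 10.16 to 10.57 (median 10.29) with 2 kidneys and 9.32 to 10.05 (median 9.63) with 1. In neither strain did the groups overlap. The difference was -0.67 ± 0.10 (SE) in SBH/y and -0.33 ± 0.10 (SE) in SBN/y.

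**Figure D1:**
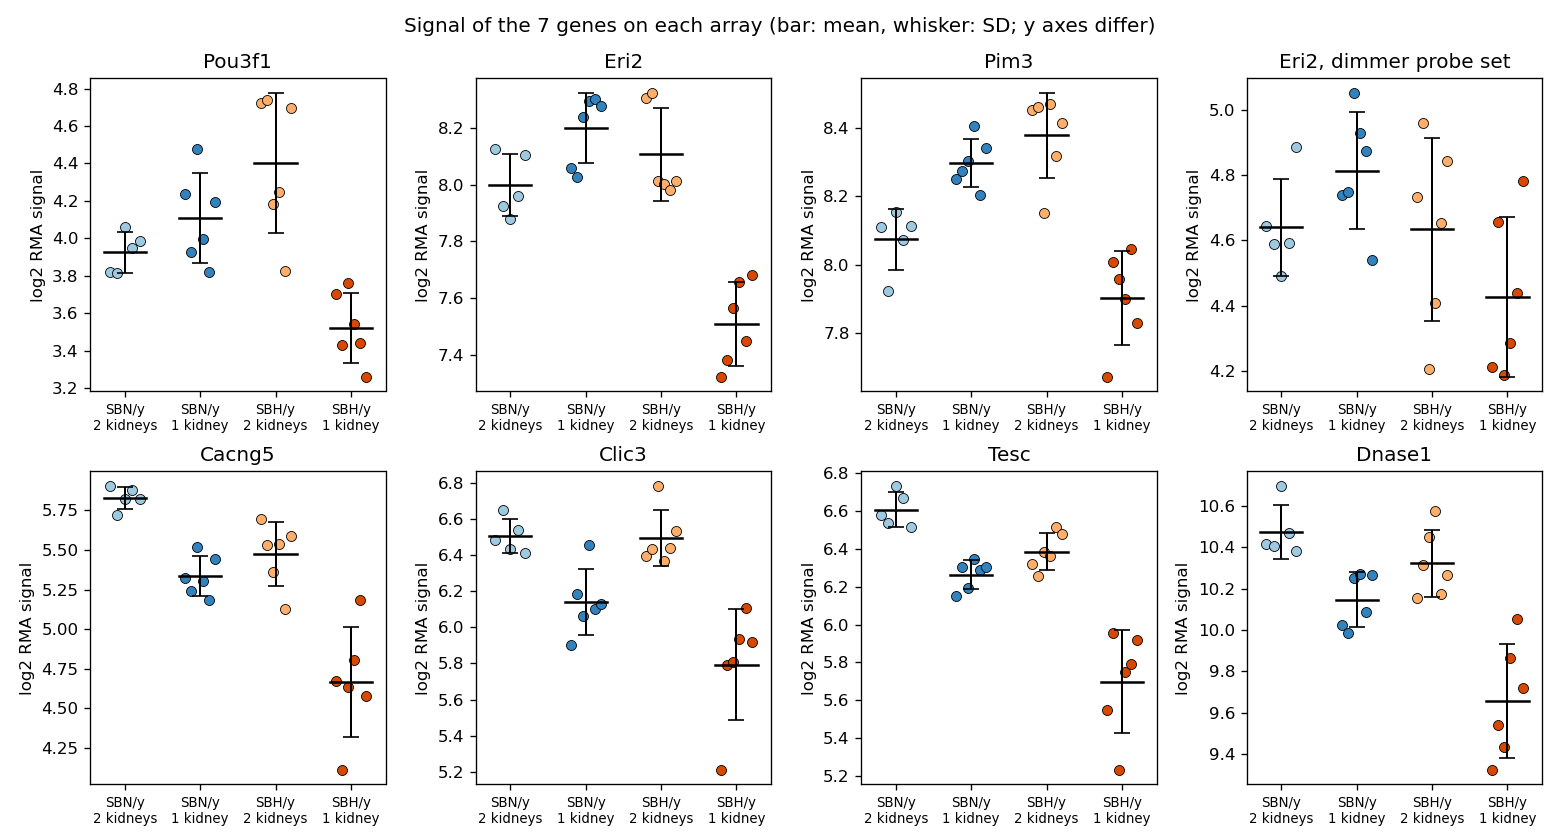
Each point is 1 array, and the y axis is the log2 RMA signal of the probe set, with a scale of its own in each panel. Bars are group means and whiskers SD (n = 5 for SBN/y with 2 kidneys, otherwise 6). The SBH/y group with 1 kidney is the lowest in each of the 7 genes, and the SBN/y groups step down in Cacng5, Clic3, Tesc and Dnase1 but not in Pou3f1, Eri2 and Pim3.

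On the linear scale the signal of Pou3f1, the largest fall, dropped by 45.7% in SBH/y, and that of Pim3, the smallest, dropped by 28.2%. The remaining 5 genes lay between these. In SBN/y the smaller difference amounted to 60.9% of the SBH/y difference (in log2) for Cacng5, 52.0% for Clic3, 49.9% for Tesc and 49.0% for Dnase1. By limma with Benjamini-Hochberg adjustment over all probe sets, 7 of 7 genes passed 0.05 as lower in SBH/y, where 1.97% of all probe sets did, and this is what they were chosen for. In SBN/y 0 of 7 passed (0.168% of all probe sets), while at an unadjusted p under 0.05 there were 4 lower and 2 higher. With only the SBN/y arrays in the fit, Cacng5 (adjusted p = 0.00620) and Tesc (adjusted p = 0.0304) passed as lower. In the fit of all groups Cacng5 passed in SBN/y without replicate 2 or 5 of SBH/y with 1 kidney, and Tesc without replicate 3 of that group. The difference between the responses passed for Pou3f1 (-1.06 ± 0.19, SE), Eri2 (-0.80 ± 0.11) and Pim3 (-0.70 ± 0.10), against 0.0451% of all probe sets in that direction. For the dimmer probe set of Eri2 it was -0.38 ± 0.17 (SE) and did not pass (adjusted p = 0.544 by limma). Nor did the fall of that probe set in SBH/y (adjusted p = 0.415 by limma). For Cacng5, Clic3, Tesc and Dnase1 the difference between the responses lay between -0.34 and -0.32 and did not pass. Of all genes, 341 were lower in SBH/y, 273 of them (80.1%) also had a lower mean in SBN/y, and the median SBN/y share of the SBH/y difference was 30.6%. Among these 341 the 7 genes ranked 5 (Pou3f1), 6, 8, 10, 12 (Cacng5, Clic3, Tesc and Dnase1), 18 (Eri2) and 45 (Pim3) by the size of the fall. Non-overlapping lower groups, found in 6 of the 7 genes in SBH/y and 3 of the 7 in SBN/y, occurred in 1.03% and 0.625% of all probe sets.

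**Figure D2:**
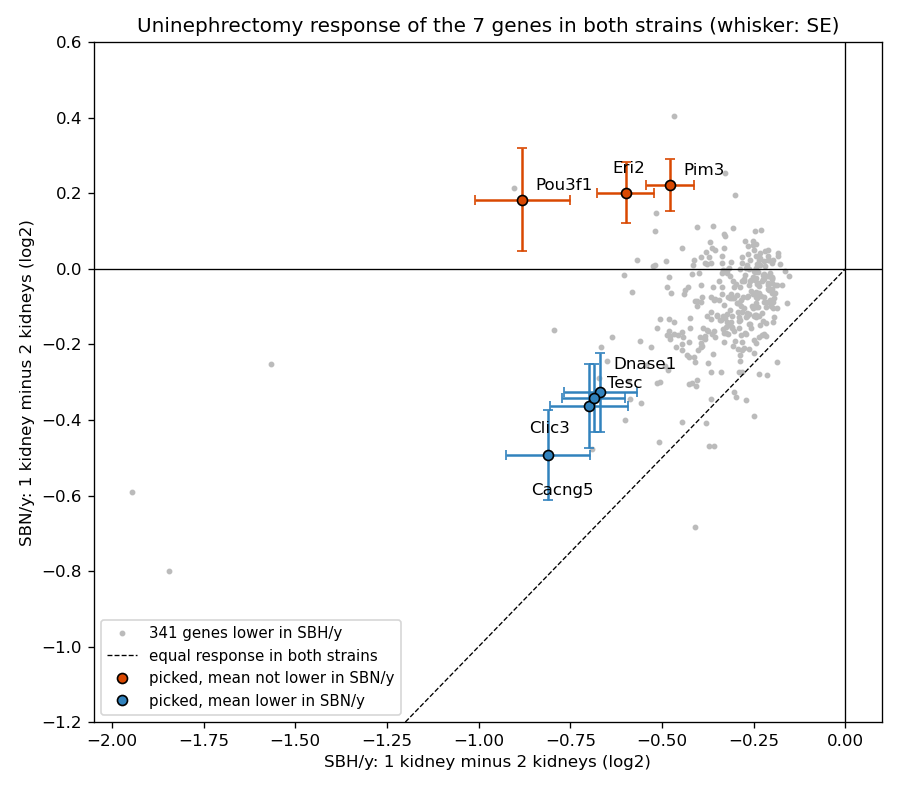
The x axis is the log2 difference of 1 kidney minus 2 kidneys in SBH/y and the y axis the same difference in SBN/y, with whiskers for the SE. Grey points are the 341 genes that were lower in SBH/y, and the dashed line marks equal responses. Pou3f1, Eri2 and Pim3 lie above 0 on the y axis (0.18 to 0.22), and Cacng5, Clic3, Tesc and Dnase1 lie at -0.49 to -0.33, between the line and 0.

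The strains were next compared over both kidney numbers, on the same arrays that the choice of genes used. As a contrast, this average difference has a correlation of 0 with the SBH/y response, 0.07 with the SBN/y response and -0.05 with the difference between them. It is not free of the choice, since a low SBH/y group with 1 kidney, which the genes were picked for, also lowers the average. The values are therefore descriptions. Cacng5 was lower in SBH/y by a difference of -0.51 ± 0.08 (SE, adjusted p = 2.61e-05), Tesc of -0.39 ± 0.06 (SE, adjusted p = 2.35e-05), Dnase1 of -0.32 ± 0.07 (SE, adjusted p = 0.00147) and Eri2 of -0.29 ± 0.06 (SE, adjusted p = 0.000294). Clic3 (-0.18 ± 0.08, adjusted p = 0.122), Pim3 (-0.05 ± 0.05, adjusted p = 0.614) and Pou3f1 (-0.05 ± 0.09, adjusted p = 0.791) did not pass. Thus 4 of 7 passed as lower, where 9.23% of all probe sets did, and the median difference was -0.29 against 0.00 over all probe sets. The dimmer probe set of Eri2 gave -0.20 ± 0.08 (SE, adjusted p = 0.112). Because the genes were picked for a low SBH/y group with 1 kidney, the comparison with all probe sets supports nothing. With 2 kidneys Cacng5, Tesc, Dnase1 and Eri2 did not pass as lower in the fit of all groups (adjusted p = 0.0623, 0.152, 0.483 and 0.539 by limma).

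The average joined unlike comparisons. With 2 kidneys the difference of SBH/y minus SBN/y was 0.48 ± 0.14 (SE) for Pou3f1 and 0.30 ± 0.07 (SE) for Pim3, which had higher means in SBH/y. Eri2 was also not lower there (0.11 ± 0.08, SE), so its lower average came from the arrays with 1 kidney, which the choice of genes used. Clic3 had -0.01 ± 0.11 and Dnase1 -0.15 ± 0.10 (SE). With 1 kidney Dnase1 differed by -0.49 ± 0.10 (SE), so its lower average too rested mostly on those arrays. With 2 kidneys the difference was -0.36 ± 0.12 (SE) for Cacng5 and -0.22 ± 0.09 (SE) for Tesc. These 2 of the 7 had sham-operated groups that did not overlap (3.84% of all probe sets), with narrow gaps of 0.025 and 0.002. With 1 kidney the 7 differences lay between -0.69 (Eri2) and -0.35 (Clic3), and the groups did not overlap for Pou3f1, Eri2, Pim3 and Tesc (4 of 7, with 3.68% of all probe sets). Both comparisons share arrays with the choice of genes and are descriptions: by limma 2 of 7 passed as higher with 2 kidneys (4.32% of all probe sets) and 7 of 7 as lower with 1 (6.43%). The call of Pou3f1 with 2 kidneys was lost without replicate 1 or 2 of SBN/y or replicate 1, 2 or 6 of SBH/y with 2 kidneys (adjusted p up to 0.0671 by limma). That of Clic3 with 1 kidney was lost without replicate 2 or 4 of SBN/y or replicate 1 of SBH/y with 1 kidney (adjusted p up to 0.0870 by limma). It was also lost with the GAPDH covariate (adjusted p = 0.0623 by limma) and with only the groups compared (adjusted p = 0.0758), which left 6 of 7.

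**Figure D3:**
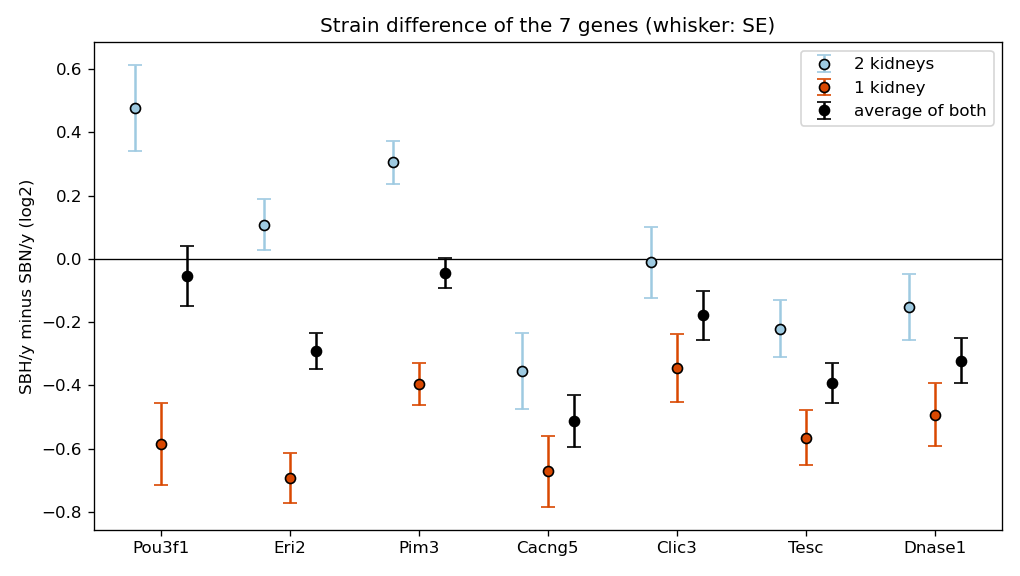
The y axis is the log2 difference of SBH/y minus SBN/y for each gene, with whiskers for the SE, for rats with 2 kidneys, with 1 kidney and for the average of both. With 1 kidney the 7 points lie between -0.69 and -0.35, and the average is farthest below 0 for Cacng5 (-0.51) and nearest 0 for Pou3f1 and Pim3 (-0.05 each).

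Eri2 shares its place in the genome with another gene of like pattern. In RefSeq (GRCr8) Acsm3, a medium-chain acyl-CoA synthetase once named SA for its link to hypertension in rats, lies wholly within the span of Eri2 on the opposite strand. Acsm3 had means of 9.07 and 9.17 in SBN/y with 2 kidneys and 1, and of 9.04 and 8.52 in SBH/y. It fell by 0.52 ± 0.07 (SE, adjusted p = 2.65e-05) in SBH/y, differed by 0.10 ± 0.07 (SE) in SBN/y, and its responses differed by -0.62 ± 0.10 (SE, adjusted p = 0.00402). Acsm3 was also lower in SBH/y on average, by a difference of -0.34 ± 0.05 (SE, adjusted p = 1.07e-05). Which transcript the brighter probe set of Eri2 reads was not tested, since the probes' sequences were not used here, so the signals of Eri2 and Acsm3 may not be separate measurements. Of the nearest measured genes on either side, Acsm1 fell by 0.36 ± 0.06 (SE, adjusted p = 0.000253) in SBH/y, with -0.23 ± 0.06 (SE) in SBN/y. Thumpd1 (0.02) and Lyrm1 (0.11) did not pass there.

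The nearest measured genes around each of the 7 mostly did not pass. Of 28 such neighbours, 2 on each side of each of the 7 genes, 3 fell (Acsm3, Acsm1 and Mlc1) and 1 rose (Npdc1) in SBH/y, with a median difference of 0.00. Of all probe sets 1.97% passed as lower there and 3.06% as higher. Acsm3 and Acsm1 are both neighbours of Eri2. Mlc1, a membrane protein of astrocytes that lies near Pim3, fell by 0.65 ± 0.11 (SE, adjusted p = 0.000521) and had -0.24 ± 0.12 (SE) in SBN/y. Npdc1, near Clic3, rose by 0.19 ± 0.05 (SE, adjusted p = 0.0400).

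Likeness of pattern was measured as the root mean square difference of log2 values over the 23 arrays, after each gene was centred on its own mean, so that 0 means identical profiles. The arrays share their groups, so these distances largely restate the group means, and a distance also grows with the gene's own spread, so distances do not rank one gene's neighbours against another's. Acsm3 was nearest to Eri2 (0.11), followed by Adhfe1, a mitochondrial alcohol dehydrogenase (0.18), and Mat2a, which makes S-adenosylmethionine (0.18). Nearest to Pim3 were Adhfe1 (0.13), Mme, the brush border peptidase neprilysin (0.14), and Zfp446 (0.15). Nearest to Pou3f1, which had a wide spread of its own, were Pim3 (0.27), Ugt8 (0.28) and Eri2 (0.28). Nearest to Dnase1 were Cryab, a small heat shock protein (0.17), Tesc (0.18) and Clic3 (0.18), and nearest to Cacng5 were Dnase1 (0.23), Cryab (0.23) and the glucagon receptor Gcgr (0.25). Clic3 was nearest to Tex14 (0.15), the proton pump subunit Atp6v1c2 (0.18) and Dnase1 (0.18). Tesc was nearest to Slc6a17 (0.15), Veph1 (0.17) and the monocarboxylate transporter Slc16a7 (0.17). Distances across the response patterns ran from 0.27 (Eri2 and Dnase1) to 0.41 (Pou3f1 and Tesc). Those among Cacng5, Clic3, Tesc and Dnase1 ran from 0.18 to 0.31, so the ranges overlapped.

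Relatives of the 7 genes mostly did not pass the test after uninephrectomy. Of 9 other POU factors, 2 other PIM kinases and 7 other gamma subunits, 0 passed in either strain by limma, and at an unadjusted p under 0.05 there was 1, a POU factor in SBN/y. Pim1 and Pim2, the other kinases of that family, differed by -0.01 ± 0.10 and 0.02 ± 0.06 (SE) in SBH/y, and Pou3f2, the closest POU relative named here, by -0.19 ± 0.13 (SE). Cacng4 and Cacng7 differed by -0.11 ± 0.10 and -0.06 ± 0.08 (SE). All group means of Pim1, Pim2, Pou3f2, Cacng4 and Cacng7 were under 4.66, the mean of the median probe set. Those of Pim1 were 3.08 to 3.31 and those of Cacng4 3.63 to 3.74. Differences between such dim signals tend to be compressed, so the lack of calls does not show that these genes were steady. Some of the other relatives counted were brighter. Pou2f1, a widely expressed POU factor, was lower in SBH/y on average by a difference of -1.64 ± 0.08 (SE, adjusted p = 1.28e-14), but by only -0.10 ± 0.12 (SE) after uninephrectomy in SBH/y.

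The relatives that did pass in SBH/y rose, as did 3.06% of all probe sets. They were Rexo2 among 10 other DEDDh exonucleases (0.19 ± 0.05, SE, adjusted p = 0.0209), Clic1 among 4 other CLIC proteins (0.19 ± 0.05, SE, adjusted p = 0.0286), Dnase2, the lysosomal DNase, among 8 other DNases (0.22 ± 0.06, SE, adjusted p = 0.0447), and Rcan1 among 8 calcineurin genes. Rcan1, an inhibitor of calcineurin, rose by 0.61 ± 0.10 (SE, adjusted p = 0.000157) in SBH/y and by 0.69 ± 0.10 (SE, adjusted p = 0.00242) in SBN/y. Rexo2 and Rcan1 were named after their values were seen. Clic5, a CLIC protein known from podocytes, differed by -0.18 ± 0.08 (SE), and the calcineurin subunits Ppp3cb and Ppp3r2 by -0.18 ± 0.07 and -0.05 ± 0.08. The exonucleases Pan2 and Isg20 differed by -0.17 ± 0.07 and 0.15 ± 0.09, and Trex1 by 0.13 ± 0.08 (SE). None of these passed. Ppp3r2 and Isg20 were dim, with group means of 2.96 to 3.07 and 3.62 to 3.92.

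Markers of several cell types moved in the same kidneys, and in whole kidney RNA fewer cells of a type and less RNA per cell cannot be told apart. The tissue read as kidney in every group, with group means of 12.41 to 12.51 for Umod, 12.19 to 12.30 for the proximal tubule transporter Slc34a1 and 10.01 to 10.78 for Aqp2. The marker counts below stand beside 3.06% of all probe sets that passed as higher and 1.97% as lower in SBH/y by limma. In SBN/y 0.168% passed in either direction. In SBH/y after uninephrectomy 6 of 8 markers of injured tubule rose, and the mean of that list ran from 6.17 to 6.38 with 2 kidneys and from 7.04 to 7.79 with 1. Its markers Lcn2 and Krt20 stayed dim in all groups (3.15 to 3.34 and 3.21 to 3.32). Myeloid markers rose in 6 of 8 (list mean 5.94 to 6.02 against 6.27 to 6.63), lymphocyte markers in 4 of 7 and matrix genes in 5 of 8. Intercalated cell markers fell in 5 of 7 (7.92 to 8.13 against 7.57 to 7.80), podocyte markers in 3 of 5 and principal cell markers in 2 of 9 (7.89 to 8.06 against 7.43 to 7.82). Markers of proximal tubule (1 of 10), thick ascending limb (1 of 6), endothelium (2 of 5) and fat (1 of 7) also fell, and 0 of 5 of the distal convoluted tubule, 0 of 5 of adrenal cortex and 0 of 2 of red blood cells passed by limma, with 0 at an unadjusted p under 0.05. In SBN/y 1 of the 8 injury markers, Havcr1, rose and 0 of the 7 intercalated cell markers passed, with 1 at an unadjusted p under 0.05. Of the 9 principal cell markers 0 passed there, with 4 at an unadjusted p under 0.05 by limma. Their median difference was -0.17 in SBN/y and -0.23 in SBH/y. For the 5 endothelial markers it was -0.12 in both strains, with 0 passing in SBN/y. The GAPDH control probes report on RNA quality through the excess of 3' over 5' signal, which was 0.46 ± 0.06 and 0.53 ± 0.11 (SD, n = 6 each) in SBH/y with 2 kidneys and 1. In SBN/y it was 0.35 ± 0.03 (SD, n = 5) with 2 kidneys and 0.45 ± 0.04 (SD, n = 6) with 1. With the GAPDH measure as a covariate 7 of 7 genes passed as lower in SBH/y. In that fit 1181 of all probe sets passed in either direction in SBH/y, against 1563 in the main one. The 7 genes were picked for being lower there on the same arrays, so their count does not test the part of RNA quality. The part of the cell type markers in the values of the 7 genes was not tested.

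Among the 6 SBH/y arrays with 1 kidney, each gene was set against Havcr1, the proximal tubule injury marker also known as Kim-1, and against the GAPDH measure. Replicate 1, with the highest Havcr1 signal (8.53), was the lowest array for Eri2, Pim3, Clic3 and Dnase1. Counted from the lowest of the 6, it ranked 5 for Pou3f1, 4 for Cacng5 and 2 for Tesc. Replicate 5, with the lowest Havcr1 signal (6.96), was the highest for Pim3, Cacng5, Clic3 and Dnase1. It ranked 3 for Pou3f1, 3 for Eri2 and 4 for Tesc. Of 14 relations 1 passed after adjustment: Pim3 was lower where Havcr1 was higher (r = -0.959, exact two-sided permutation p = 0.00278, the smallest that 6 arrays can give, adjusted p = 0.0389, and rho = -1 with the same p and adjusted p). Without replicates 1 and 6, the farthest from the median of Havcr1, r was -0.997 over 4 arrays (exact permutation p = 0.0833, the smallest that 4 arrays can give, so this check could not pass 0.05). When the values were quantile-normalized once more the relation no longer passed (r = -0.898, exact permutation adjusted p = 0.350). Clic3 (r = -0.815, adjusted p = 0.708, exact permutation test) and Dnase1 (r = -0.534, adjusted p = 0.708, exact permutation test) had the next largest coefficients with Havcr1. Without replicates 1 and 6 these were -0.405 and -0.245. Within SBH/y with 2 kidneys the coefficients of Clic3 and Dnase1 had the opposite sign (0.709 and 0.303, exact permutation adjusted p = 0.708 and 0.746). Within SBN/y with 1 kidney they were -0.885 and -0.380 (adjusted p = 0.389 and 0.746, exact permutation). Eri2 (-0.264), Tesc (-0.085), Cacng5 (-0.060) and Pou3f1 (0.138) had smaller coefficients and did not pass. That of Eri2 was 0.848 without replicates 1 and 6 (exact permutation p = 0.167). Tesc had -0.829 within SBN/y with 1 kidney (exact permutation p = 0.0222, adjusted p = 0.311). With GAPDH, Tesc had r = 0.693 (exact permutation p = 0.0444, adjusted p = 0.311, rho = 0.829, p = 0.0583), and the other 6 genes lay between -0.595 and 0.292. The same relation of Pim3 with Havcr1 was -0.689 within SBN/y with 1 kidney (exact permutation p = 0.142, adjusted p = 0.661) and -0.648 within SBH/y with 2 kidneys (exact permutation p = 0.331, adjusted p = 0.710).

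**Figure D4:**
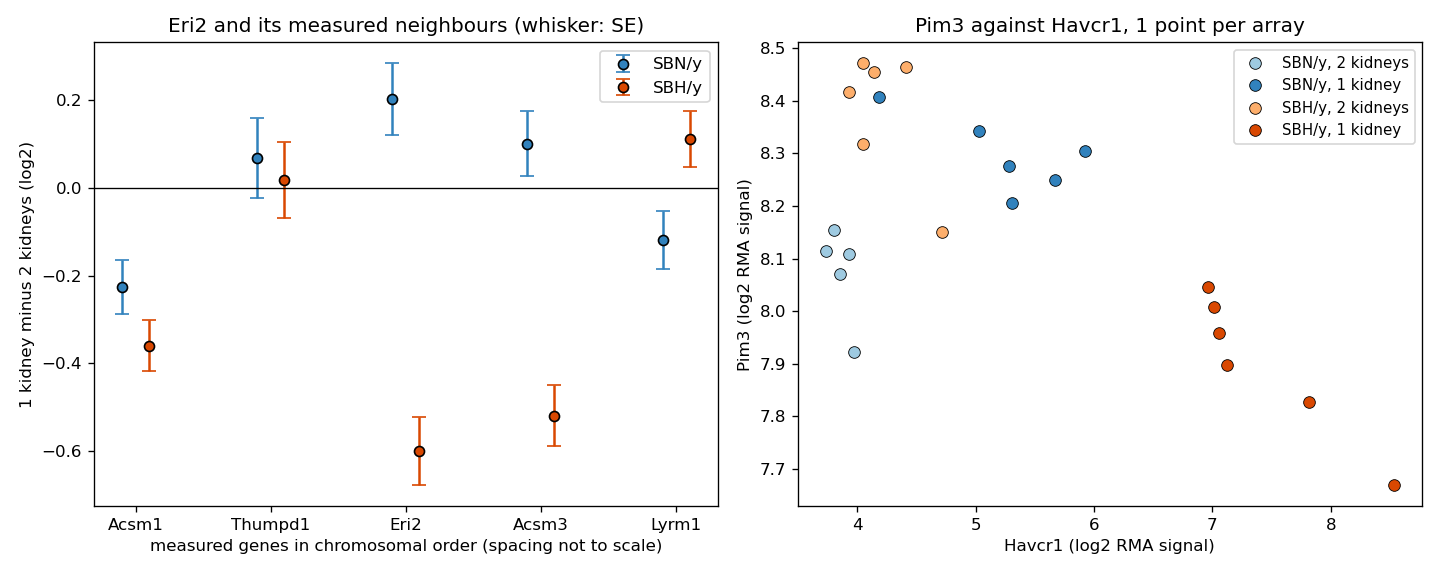
In the left panel the y axis is the log2 difference of 1 kidney minus 2 kidneys in each strain, with whiskers for the SE, for Eri2 and the measured genes around it in chromosomal order. Eri2 and Acsm3 lie below 0 in SBH/y and above it in SBN/y (-0.60 and -0.52, against 0.20 and 0.10). In the right panel each point is 1 array, with Havcr1 on the x axis and Pim3 on the y axis (log2 RMA signal), and the 6 SBH/y arrays with 1 kidney descend from 8.05 to 7.67 in Pim3 as Havcr1 goes from 6.96 to 8.53.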

How the data were processed

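Kidney RNA of 23 samples was hybridised to Affymetrix arrays, 1 per sample. The deposited values are log2 signals that, per the submitters' processing notes, the authors made using GCOS and RMA, both without a stated version. They ran from 1.89 to 13.67, with array medians of 4.65 to 4.69. Such normalization hides a change in total mRNA. Scan dates, and so batches, were not known. The labels name samples and not animals, so a p-value here reflects only sample-to-sample spread, and the number of arrays limits the precision.

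Of 31099 probe sets, 57 controls were left out and 31042 tested. The platform annotation gave 20826 of these 1 symbol, 436 several and 9780 none, and 20758 were matched in RefSeq (GRCr8). Limma 3.58.1 (R 4.3.3) was fitted to all 4 group means, with two-sided tests and Benjamini-Hochberg adjustment over 31042 probe sets at 0.05. Correlations used exact permutation tests (scipy 1.17.1), adjusted over 14 relations. The fit was tested on simulated data. Genes named were the 7 genes, the 3 nearest in pattern to each, 2 measured neighbours on each side that passed or lay beside Eri2, the 2 relatives per family with the largest difference between responses, and Havcr1. Marker genes and Rexo5 were named outside this rule, Lcn2 and Krt20 after their values were seen. The genes, lists and rules were chosen with earlier results of these data known.

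Replicate numbers occur in all groups, and the main fit did not pair samples by them. Deviations of same-numbered arrays correlated between -0.27 and 0.26 (median 0.04), with 7 of 33 pairs over 0.1. Arrays of different numbers were not compared, so whether the numbers pair samples was not tested. Alternatives were a trended robust variance, a second quantile normalization, removal of dim probe sets, fits of the compared groups only, the dimmer probe set, 1 probe set per gene, a replicate block, a GAPDH covariate and each array left out. The relations within other groups were added after the data had been seen.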

Additional observations from a re-analysis of the deposited data

Results flagged for a closer look

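Of 40 gene and group combinations examined for an array that stood apart, 2 had one, where chance gives about 1 in 20. Clic3 read 5.21 in replicate 1 of SBH/y with 1 kidney, and the nearest other array of the group read 5.79. Dnase1 read 10.7 in replicate 3 of SBN/y with 2 kidneys, and the nearest other array read 10.47.

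The response to uninephrectomy differed between the strains for Acsm3, the gene within the span of Eri2, by -0.62 (SBH/y minus SBN/y, log2, limma). It differed for Pou3f1 by -1.06, for the brighter probe set of Eri2 by -0.80 and for Pim3 by -0.70. These values are descriptions because the genes were picked on the response.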

How the results depend on the processing

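The number of the 7 genes past the threshold stayed within 1.5 times in most alternatives. Exceptions follow, and the cause was not tested in any of them. For uninephrectomy in SBN/y, where 0 of the 7 genes passed, fitting only the groups compared gave 2 (Cacng5 and Tesc) and the GAPDH covariate gave 1 (Tesc). For the strains with 2 kidneys, where 2 passed, fitting only the groups compared gave 4 (Cacng5 and Tesc lower as well). In that fit 2726 of all probe sets passed in either direction, against 2817 in the main one. The relations within SBH/y with 1 kidney gave 0 after a repeated quantile normalization. Leaving out each array in turn gave 7 in SBH/y, 0 to 1 in SBN/y and 3 for the difference between responses. For the strains it gave 1 to 3 with 2 kidneys, 6 to 7 with 1 kidney and 4 on average. The share of all probe sets that passed in those fits is not given here.

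The average strain difference of Pou3f1, -0.05 and not past the threshold, turned to 0.0199 with the GAPDH covariate. With single arrays left out it ran from -0.0873 to 0.0038, the latter without replicate 5 of SBH/y with 2 kidneys. The filter on dim probe sets removed Pou3f1. Probe sets past the threshold for the difference between responses numbered 79, and 124 with the trended robust variance and also with the GAPDH covariate. In SBN/y they numbered 52, and 78 with the filter. With the replicate number as a block, 7 genes passed for SBH/y, 0 for SBN/y and 3 for the difference between responses. For the strains 2 passed with 2 kidneys, 7 with 1 and 4 on average. These counts were the same as without the block.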
